A study of Mus musculus with 39 samples.

Results

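The genes described here encode the nuclear subunits of the oxidative phosphorylation complexes. A gene counted as a member when its symbol begins with Atp5, with Cox4 to Cox8, or with Ndufa, Ndufb, Ndufc, Ndufs, Ndufv, Sdh or Uqcr. Pseudogenes and the assembly factors named Ndufaf were left out. This gave 85 genes on 106 probes, of 16535 named genes and 41174 probes on the array. Of the 85, 35 were assigned by symbol to complex I, 4 to complex II, 7 to complex III, 19 to complex IV and 17 to complex V. By this rule Cox7a2l counts with complex IV. The prefix Sdh also took in Sdhaf1, Sdhaf2 and Sdhaf4, assembly factors of complex II that are kept apart below. Ndufa4, whose name places it in complex I, was counted with complex IV, where its protein sits.

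Oxidative phosphorylation takes place in the inner mitochondrial membrane, where complexes I and II pass electrons from NADH and succinate to ubiquinone, complex III passes them to cytochrome c and complex IV to oxygen. Complexes I, III and IV pump protons across the membrane, and complex V, the ATP synthase, makes ATP as the protons return. Most subunits are encoded in the nucleus, and several complex IV subunits come as a widely expressed isoform and an isoform known from muscle, testis or lung.

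The data are 39 single-color microarrays of mouse oocytes, 2-cell embryos and cumulus cells, all of (B6xDBA/2)F1 strain, from females 8 to 10 weeks old. The series asked how embryos cloned by somatic cell nuclear transfer differ from fertilized embryos, and what trichostatin A (TSA, an inhibitor of histone deacetylases) and mRNA of the transcription factor Spi-C change in them. The groups were 7 arrays of unfertilized oocytes taken 15 h after hCG (OC), 6 of embryos fertilized in vitro (IVF), 8 of embryos cloned from cumulus cells without TSA, called TSA(-), 6 of cloned embryos kept in 5 nM TSA for 8 h, called TSA(+), 4 each of cloned embryos injected with Spi-C mRNA at 1.0 or 0.1 mg/ml, called Spi-C 1.0 and Spi-C 0.1, and 4 of cumulus cells, the donor cell type. Each array held 10 oocytes or embryos, or 500 cumulus cells, and the embryos were cultured for 24 h.

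A level is the log2 intensity of a probe minus the 75th percentile of its array, so a level of 0 sits at that percentile. The percentile itself stood at an intensity of 279 to 528 in OC, 1029 to 1406 for IVF, 1232 to 1509 for TSA(-), 1262 to 1610 for TSA(+), 2140 to 2639 for Spi-C 1.0, 2336 to 2707 for Spi-C 0.1 and 814 to 1125 for Cumulus. Between 48.7 and 60.0% of probes were marked well above background in OC, 69.6 to 76.3% for IVF, 66.9 to 77.6% for TSA(-), 68.6 to 75.4% for TSA(+) and 58.3 to 65.8% for Cumulus, with medians of 73.2% in Spi-C 1.0 and 71.6% in Spi-C 0.1. The OC, IVF and TSA arrays shared 9 slides and 5 scan days. The Cumulus arrays lay on 1 slide of their own and the Spi-C arrays on 2, read on another scanner, so those groups and their batch cannot be told apart. The samples are pools, in which fewer cells of a type and less RNA per cell cannot be told apart.

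The labelled tissues were checked against marker lists. All 9 oocyte markers measured were well above background on every OC array (median level 4.93, brightest Oosp1 at 10.35), whereas 5 of them reached that mark on no Cumulus array and Gdf9, the brightest there, stood at 0.34. All 5 markers of 2-cell embryos were well above background on every IVF array, with a median of 5.14 and Tcstv1 the brightest at 5.89, and 2 of them were so on no Cumulus array, where Eif1a was brightest at 3.70. The 5 were so on each OC array as well (Tcstv1 at 4.11), and the 9 oocyte markers on each IVF array, but all 5 markers of 2-cell embryos were called higher in IVF than in OC (median difference 3.60) and all 9 oocyte markers lower (-2.17). All 10 cumulus and granulosa markers were well above background on every Cumulus array (median 2.61, brightest Cyp11a1 at 6.92), and 8 were called higher there than in OC and 8 than in IVF. They were not confined to these cells: 3 were well above background on every OC array and 6 on every IVF array. The median level of all 10 was -4.28 in OC and -4.80 in IVF. Has2 read 0.58 in OC and 0.87 in Cumulus. Amhr2 was brighter in IVF (2.61) and TSA(+) (3.15) than in Cumulus (2.21), and Foxl2 read -4.48 in OC and -5.79 in Cumulus. The 5 leukocyte markers were well above background on every Cumulus array too (median -1.36, brightest Lyz2 at 5.65). What part of the Cumulus levels comes from leukocytes was not tested.

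Transcripts of the members were widely present. Of the 85 members, 78 were well above background on all 39 arrays, and no spot was saturated. The exceptions were Ndufs8, Ndufc1, Cox4i2, Cox7a1, Cox7b2, Cox8b and Cox8c. Cox7b2, a complex IV isoform known from testis, was above background on no array and was the 1 member that could not be tested, which leaves 84. The median level of the members ran from 1.35 to 1.92 on the OC arrays, 1.34 to 1.57 on those of IVF, 1.46 to 1.82 for TSA(-), 1.61 to 1.97 for TSA(+), 1.88 to 2.03 for Spi-C 1.0, 1.70 to 2.13 for Spi-C 0.1 and 4.01 to 4.89 for Cumulus, where every array lay above all arrays of the other groups.

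Differences below are log2 differences of group means, called at an adjusted p under 0.01. They rest on the 75th percentile scaling, and 3 other scalings were run: quantile normalization, centering on the array median, and the normexp background correction. The scaling sets where the middle of all probes lies. The median difference of all probes under the scaling used, quantile, median centering and normexp was -0.87, -0.29, -1.55 and -1.28 for IVF against OC, -1.14, -0.25, -0.93 and -1.13 for Cumulus against OC, and -0.13, 0.12, 0.75 and 0.20 for Cumulus against IVF. It was -0.04, 0.01, -0.03 and -0.22 for TSA(-) against IVF, -0.22, 0.01, -0.02 and -0.25 for TSA(+) against IVF, -0.10, 0.02, 0.08 and -0.02 for TSA(+) against TSA(-), 0.15, 0.01, -0.05 and -0.25 for Spi-C against TSA(-), and 0.02, -0.01, -0.05 and 0.03 for Spi-C 1.0 against Spi-C 0.1. The p-values measure only the spread between these samples.

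**Figure D1:**
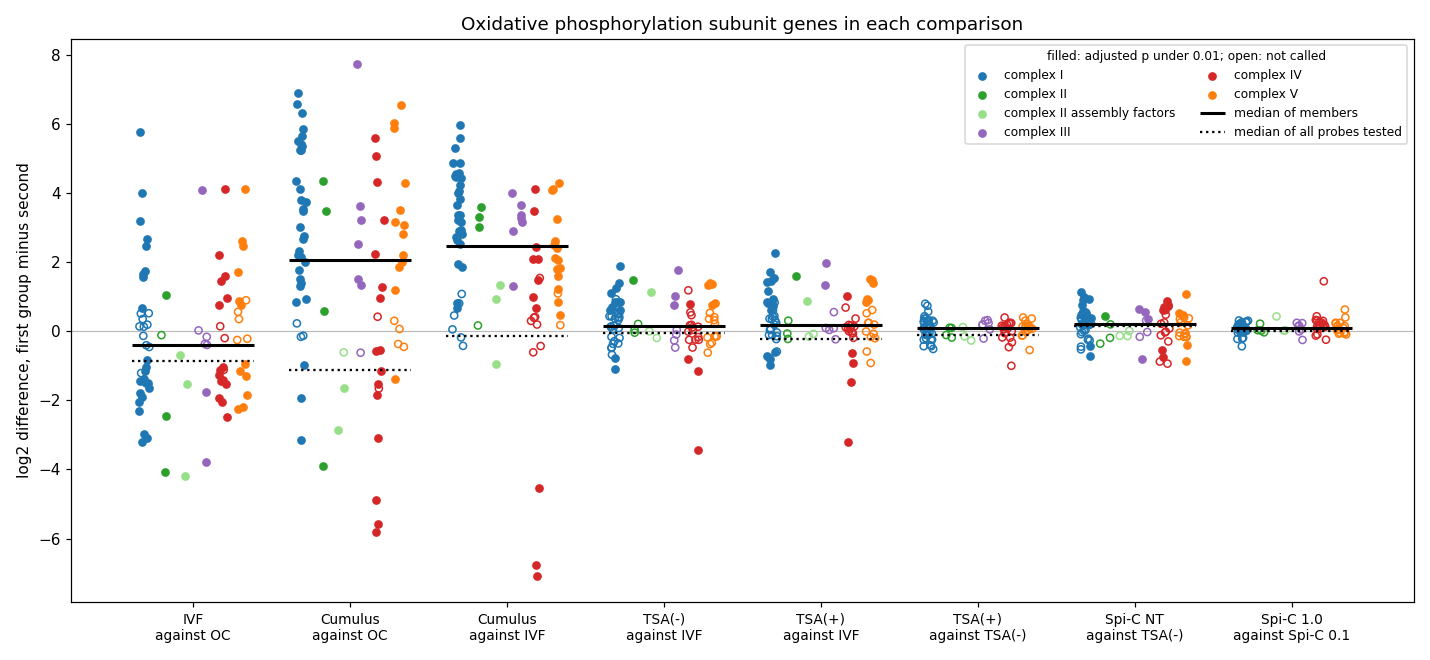
Each point is the log2 difference of 1 member in 1 comparison, by complex, filled where called, with the median of the members as a solid bar and that of all probes as a dotted one. In Cumulus against IVF 29 of 35 complex I genes were higher (29 to 34 under the other scalings), and in IVF against OC the split between higher and lower (23 and 38) turned to 34 and 20 under quantile normalization.

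IVF against OC asks how the transcripts of the 2-cell embryo differ from those of the oocyte. Under the scaling used, every complex held members called higher and members called lower, which did not hold under each other scaling. In IVF 23 of the 84 members were higher (27.4%, beside 23.4% of all probes) and 38 lower (45.2%, beside 42.6%). These shares lie near the background, so the counts are not a result about the members; the individual genes are. The count in each direction depends on the scaling, with 34 higher and 20 lower under quantile normalization, 16 and 51 under median centering and 36.5% of the calls higher under normexp, against 37.7% here. Across the 4 scalings 16 members were higher each time and 17 lower each time, and 10 were called in opposite directions: Atp5b, Atp5g3, Cox5b, Cox6c, Cox7a2, Cox8a, Ndufb2, Ndufb6, Uqcrfs1 and Uqcrh. The median difference of the members was -0.40, beside -0.87 for all probes, and it was 0.21 under quantile normalization.

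In complex I, 9 genes were higher and 16 lower in IVF, and 11 and 11 under quantile normalization. Ndufs8, an iron-sulfur core subunit, lay between -7.39 and -5.07 (median -6.13) in OC, where it was well above background on 0 of 7 arrays, and between -0.65 and -0.11 (median -0.54) in IVF. It was at least 26.5-fold higher in IVF (adjusted p 2.16e-18), a bound for which each OC value not well above background was raised to the lowest level marked so on its array; the same holds for every bound below. Thus the Ndufs8 transcript was not detectable above background in oocytes and was present in every IVF pool. Ndufv1, which carries the NADH binding site, had levels of -1.72 to -0.59 (median -1.21) in OC and 1.07 to 1.55 (median 1.38) in IVF, a difference of 2.47 (SE 0.19, adjusted p 1.71e-12). Ndufs1, the largest iron-sulfur subunit, went the other way, from 2.85 to 3.73 (median 3.17) in OC to 1.26 to 2.05 (median 1.82) in IVF. Its difference of -1.49 (SE 0.20, adjusted p 8.04e-08) was -0.50 (adjusted p 0.0166) under quantile normalization and no longer called. For these 3 genes all OC arrays lay on 1 side of all IVF arrays.

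Some large decreases in IVF were in complexes II and III. Sdha, the flavoprotein that oxidizes succinate, stood at 4.94 to 5.90 (median 5.32) in OC and 1.12 to 1.54 (median 1.28) in IVF, a difference of -4.08 or 16.9-fold (SE 0.19, adjusted p 1.04e-17), and its other probe gave -3.17. Sdhaf4, which protects and matures Sdha, showed the same pattern, at 5.28 to 6.30 (median 5.92) in OC and 1.57 to 1.81 (median 1.65) in IVF, 18.3-fold lower (difference -4.20, SE 0.16, adjusted p 1.66e-19). The other assembly factors, Sdhaf1 (-0.68) and Sdhaf2 (-1.53), were called lower as well, Sdhaf1 by less than the shift of all probes and not under quantile normalization (0.06). Sdhaf2 was lower on 2 of its 3 probes, and the other probe was not called (0.25, adjusted p 0.259). Of the membrane anchor genes, Sdhc was lower (-2.44) and Sdhd higher (1.04, but 0.36 and not called under median centering); both were chosen after their values were seen. Sdhb, the iron-sulfur subunit, was not called (-0.11, adjusted p 0.629).

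The core proteins of complex III moved in opposite directions. Uqcrc2 fell from 5.56 to 7.72 (median 6.38) in OC to 2.41 to 2.99 (median 2.81) in IVF, 13.8-fold (difference -3.79, SE 0.22, adjusted p 2.64e-15). Uqcrc1 rose from -4.53 to -2.74 (median -3.21) in OC to -0.36 to 0.95 (median 0.91) in IVF, a difference of 4.08 (SE 0.26, adjusted p 2.11e-14), and its second probe, above background on 6 of 7 OC arrays, gave at least 12.8-fold. The OC and IVF arrays did not overlap for either gene. Uqcrb, chosen after its values were seen, was also lower (-1.75). The Rieske iron-sulfur protein Uqcrfs1 was not called (-0.40, adjusted p 0.134).

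In complex IV, 6 genes were higher and 9 lower, which turned to 10 and 3 under quantile normalization. Cox7b rose from -1.78 to -0.06 (median -1.08) in OC to 2.69 to 3.38 (median 3.15) in IVF, 17.5-fold (difference 4.13, SE 0.20, adjusted p 4.44e-17). Cox4i1, the regulatory subunit that binds ATP, had levels of 0.11 to 1.13 (median 0.59) in OC and 1.62 to 2.46 (median 2.14) in IVF (difference 1.47, SE 0.18, adjusted p 2.79e-08). Every IVF array was above every OC array for both. Cox5a (-1.93), Cox7a2 (-1.26), Cox8a (-1.40), Ndufa4 (-1.52) and Cox6b2 (-1.03) were called lower, but each was above 0 under quantile normalization (0.21, 0.59, 0.83, 0.22 and 0.20). Cox6b1 was lower under all 4 scalings (-1.13, adjusted p 9.4e-07). Cox5b (-0.20) and Cox6a1 (0.14) were not called.

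Complex V had 6 members higher and 6 lower in IVF, and 9 and 0 under quantile normalization. Atp5g1, which encodes the c subunit of the rotor ring, rose from -3.05 to -2.02 (median -2.46) in OC to 1.39 to 1.76 (median 1.61) in IVF, 17.4-fold (difference 4.12, SE 0.20, adjusted p 4.2e-17). Atp5o, the subunit that joins the peripheral stalk to the catalytic head, rose from -0.62 to 1.07 (median -0.05) to 2.19 to 3.02 (median 2.71), a difference of 2.61 (SE 0.20, adjusted p 1.13e-12). The catalytic beta subunit Atp5b lay at 8.48 to 9.15 (median 8.81) in OC and 6.86 to 7.15 (median 7.06) in IVF. Its difference of -1.84 (adjusted p 3.83e-14), lower on all 3 probes, became 0.41 (adjusted p 0.000334) under quantile normalization, so no direction can be given for it.

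The 2 slides that held both OC and IVF arrays gave a median difference of the members of -0.26 and -0.57 (all probes -0.99 and -0.76). With the slide as a block 20 members were higher and 37 lower. Leaving out 1 array gave 21 to 24 higher and 38 to 39 lower.

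Cumulus against OC and Cumulus against IVF ask how the donor cell type differs from the oocyte and from the fertilized embryo; they share the Cumulus arrays, and the cell type cannot be told apart from slide and scanner. Most members were higher in cumulus cells, across complexes I, II, III and V. In complex IV some isoforms were far lower there. Against OC 57 members were higher (67.9%, beside 23.5% of all probes) and 16 lower (19.0%, beside 44.1%), and 70 and 9 under quantile normalization. Against IVF 64 were higher (76.2%, beside 24.0%) and 4 lower (4.76%, beside 31.2%), and higher calls made up 91.4 to 96.2% of the calls under the 4 scalings. The median difference of the members was 2.07 against OC and 2.48 against IVF, beside -1.14 and -0.13 for all probes. Leaving out 1 array gave 57 to 58 higher and 14 to 18 lower against OC, and 61 to 66 higher and 4 to 5 lower against IVF.

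In complex I, 29 genes were higher and 3 lower in Cumulus against OC (Ndufab1, whose other probe was higher, Ndufb5, and Ndufb6, which was called higher under quantile normalization), and 29 were higher against IVF, with 1 lower under normexp and 1 under quantile normalization. Ndufc2, a membrane arm subunit, read 4.03, 4.56, 4.91 and 4.09 in Cumulus, against -2.34 to -0.93 (median -1.53) in IVF, a difference of 5.98 or 63.1-fold (SE 0.25, adjusted p 1.18e-18). Ndufa12 read 3.80, 4.43, 5.16 and 4.17, against -1.75 to -0.56 (median -0.79) in IVF (difference 5.31, SE 0.26, adjusted p 4.16e-17), and all 3 of its probes were higher. Cumulus arrays were above all IVF arrays for both genes. Against OC, Ndufc1 read 4.54, 4.69, 5.26 and 4.83 in Cumulus and -5.44 to 0.04 (median -2.19) in OC, well above background on 6 of 7 arrays there (at least 119-fold, adjusted p 1.11e-12). Ndufs8 read 0.09, 0.56, 0.56 and 0.17 in Cumulus and was at least 46.4-fold higher than in OC (adjusted p 5.92e-19). Ndufv1 was higher by 5.41 against OC and 2.94 against IVF, and Ndufs1 by 1.32 and 2.81.

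Complex II showed 3 genes higher in Cumulus in each comparison, Sdhb, Sdhc and Sdhd. Sdhb read 2.37, 2.37, 1.89 and 2.43, a difference of 3.48 against OC and 3.59 against IVF. Sdha read 1.85, 1.68, 0.62 and 1.79, lower than in OC (-3.91) and not called against IVF (0.17), while its second probe was higher than in both OC (0.62, adjusted p 0.00257) and IVF (3.79, adjusted p 2.87e-17), so its probes give no single direction. Among the assembly factors Sdhaf4 was lower than in OC (-2.85) and higher than in IVF (1.35), and Sdhaf1 was lower in both (-1.63 and -0.95), though no assembly factor was lower than in IVF under median centering.

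In complex III, 6 of 7 genes were higher in Cumulus against OC and 7 of 7 against IVF. Uqcrc1 read 4.16, 4.57, 4.57 and 3.78 in Cumulus, 211-fold higher than in OC (difference 7.72, SE 0.30, adjusted p 4.13e-20), and it was higher than in IVF by 3.64. Uqcrfs1 was higher by 2.52 and 2.91. In complex V Atp5o read 5.60, 6.03, 6.36 and 5.71 in Cumulus, higher by 5.87 against OC and 3.26 against IVF. Atp5b read 7.38, 7.42, 7.75 and 7.42, lower than in OC (-1.39, but 0.57 under quantile normalization) and higher than in IVF (0.46, adjusted p 0.0057). The call against IVF was lost under quantile normalization (0.16, adjusted p 0.211), with the mean over its probes (0.44, adjusted p 0.0912), with the replicate number as a block (adjusted p 0.0164), and without IVF replicate 1 or 2 or Cumulus replicate 3 (0.37, adjusted p 0.0333).

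In complex IV, 7 genes were higher and 9 lower in Cumulus against OC (11 and 4 under quantile normalization), and 8 and 3 against IVF. The share lower against OC lay near the 44.1% of all probes, and that against IVF lay below their 31.2%. The counts of lower genes are thus not a result about complex IV, and the individual isoforms are described instead. Cox6a2, Cox6b2 and Cox8c, isoforms known from muscle or testis, were lower in both comparisons. Cox6a2, the muscle form, read -6.62, -6.53, -5.91 and -5.48 in Cumulus, -0.72 to 0.23 (median -0.32) in OC and 0.34 to 0.94 (median 0.59) in IVF. It was 56.4-fold lower than in OC (difference -5.82, SE 0.23, adjusted p 1.41e-19) and 110-fold lower than in IVF (-6.78, adjusted p 1.8e-20). Cox6b2, the testis form, read -1.98, -1.69, -1.56 and -2.12 in Cumulus and 3.22 to 4.26 (median 3.82) in OC, 47.6-fold lower (difference -5.57, adjusted p 1.28e-21), and it was lower than in IVF too (-4.55, adjusted p 9.63e-19). Oocytes and embryos thus carried both transcripts on every array, at levels no Cumulus array reached. Cox8c, the other testis form, read -9.01, -4.52, -8.40 and -8.76 in Cumulus, well above background on 1 of 4 arrays. It was at least 41.6-fold lower than in IVF (adjusted p 2.18e-08) without overlap, and was called lower than in OC (adjusted p 6.26e-06), where 6 of 7 arrays were above background and the groups overlapped. Cox7a1, a muscle form, was called neither against OC (0.42, adjusted p 0.469) nor against IVF (1.54, adjusted p 0.0148), and the other 3 scalings called it higher than in IVF. Cox8b was above background on 1 of 4 Cumulus arrays and Cox4i2 on 0 of 4, and no size is given for either.

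**Figure D2:**
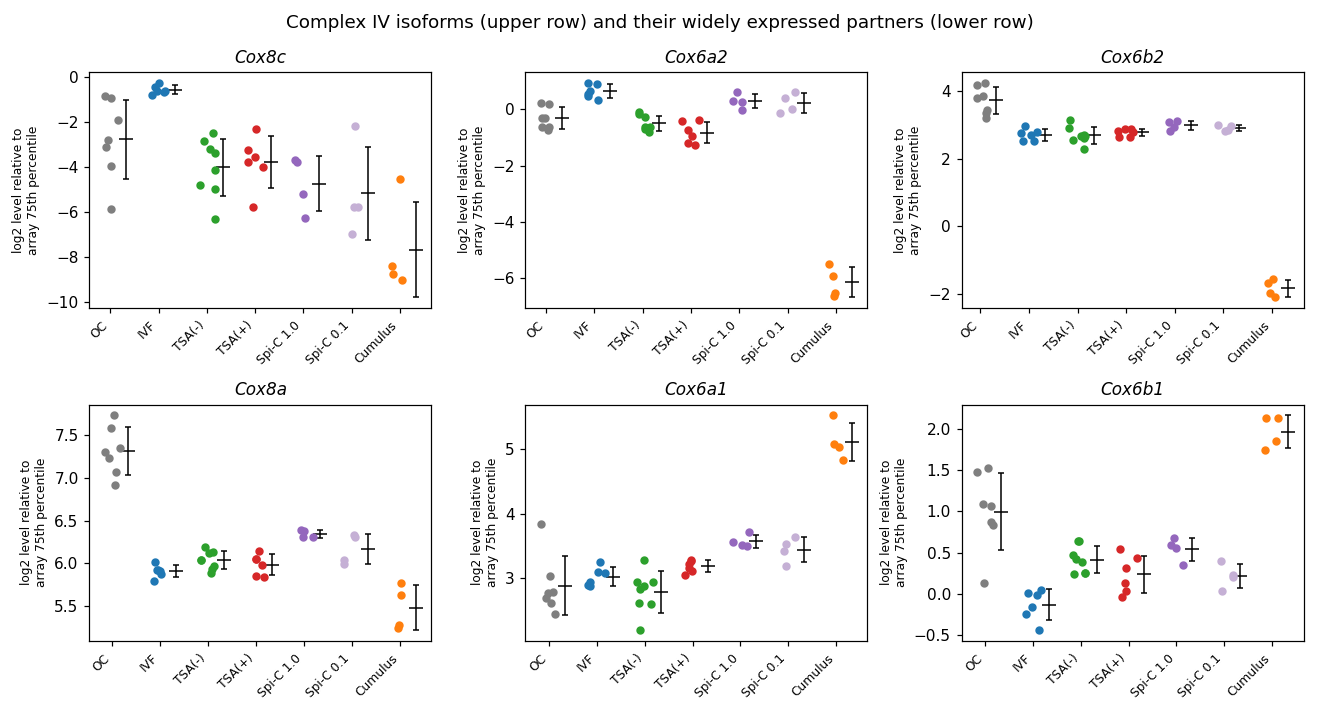
Levels of 3 tissue-restricted complex IV isoforms (upper) and their widely expressed partners (lower) in the 7 groups, in log2 relative to the array's 75th percentile; points are arrays, bars means and whiskers SD. Cox6a2 lies between -6.62 and -5.48 in Cumulus and no lower than -1.27 on any TSA(+) array, while the Cox6a1 levels of Cumulus exceed those of OC by 2.23 on average.

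The widely expressed partners of these isoforms were measured by probes of their own. Cox6a1 read 4.83, 5.04, 5.52 and 5.08 there, higher by 2.23 against OC and 2.09 against IVF. Cox6b1 read 1.74, 2.14, 2.13 and 1.86, higher by 0.97 and 2.10. Cox8a read 5.24, 5.28, 5.77 and 5.63, lower than in OC (-1.83, but 0.29 under quantile normalization) and not called against IVF (-0.43, adjusted p 0.0127). Cox4i1 read 5.90, 6.26, 6.67 and 5.98, higher by 5.58 and 4.11, and Cox5b was higher by 1.27 and 1.47. Cox7b was higher than in OC (4.32) and not called against IVF (0.19).

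Some complex IV calls in cumulus cells were fragile. Cox5a was lower than in OC (-1.51, but 0.53 under quantile normalization). Cox7a2 (-0.58, adjusted p 0.00928) and Ndufa4 (-0.54, adjusted p 0.00583) stood below OC and had the opposite sign under quantile normalization (1.18 and 1.13) and no call under median centering, normexp or the Tukey test, nor had Cox7a2 with the mean over its probes. The Cox7a2 call was lost without any 1 of OC replicates 1 to 5 (-0.57 to -0.49) or Cumulus replicates 1 (-0.40, adjusted p 0.0796), 2 and 4, and that of Ndufa4 without any 1 of OC replicates 2 to 5 (-0.51 each) or Cumulus replicates 1 (-0.44, adjusted p 0.0364) and 4. Against IVF both were higher, Cox7a2 by 0.67 (adjusted p 0.00482) with overlapping groups and Ndufa4 by 0.98. That Cox7a2 call was lost with the replicate number as a block, under the Tukey test and without IVF replicates 1 or 5 or Cumulus replicates 2 or 3 (0.47 and adjusted p 0.0492 without replicate 3).

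Between oocyte and fertilized embryo no firm direction can be given for most of these isoforms. Cox6a2 was called higher in IVF than in OC (0.96, adjusted p 0.000157), but not under median centering (0.28). Cox8c, above background on 6 of 7 OC arrays, was at least 4.39-fold higher in IVF (adjusted p 0.00928), a call lost under quantile normalization, median centering, slide and scan day blocking, the fit of all groups and the Tukey test, and without OC replicates 1 (1.69, adjusted p 0.0309), 4, 6 or 7 or any 1 IVF array (2.14 to 2.26). Cox8b was above background on 5 of 7 OC and 2 of 6 IVF arrays and Cox4i2, known from lung, on 2 of 7 and 1 of 6, so that no size of a difference is given for them. Both were called lower in IVF. Cox7b2, above background on no array, also read lower there (mean -7.85) than in OC (-6.74). For Cox8b and Cox4i2 a lower transcript level thus cannot be told apart from a lower background level. The Cox8b call was lost under none of the alternatives run, the slide as a block included (adjusted p 0.0029). That of Cox4i2 was lost under quantile normalization (adjusted p 0.0128), with the slide as a block (adjusted p 0.0265) and under the Tukey test (adjusted p 0.0131). Cox7a1 was not called (-1.12, adjusted p 0.0328).

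TSA(-) and TSA(+) were each set against IVF to ask how cloned 2-cell embryos differ from fertilized ones; the comparisons share the 6 IVF arrays, so their values stand side by side without being counted as separate evidence. A small number of members from complexes I, II, III and V were higher by over 1 log2 unit in both cloned groups. Stage markers differed too: 4 of the 5 markers of 2-cell embryos were lower in TSA(-) (median difference -1.10) and 2 in TSA(+) (-0.96), with Zscan4c at 4.22 in IVF, 0.35 in TSA(-) and 0.13 in TSA(+), and 2 of 9 oocyte markers were lower in each, so that a difference in stage is not excluded. In TSA(-) 21 members were higher (25.0%, beside 8.58% of all probes) and 5 lower (5.95%, beside 10.2%), and in TSA(+) 23 were higher (27.4%, beside 8.02%) and 8 lower (9.52%, beside 10.8%). The lower shares are not above the background and are not a result about the members. Higher calls outnumbered lower ones under all 4 scalings, at 80.8 to 84.4% of calls in TSA(-) and 74.2 to 83.3% in TSA(+). The median difference of the members was 0.16 in TSA(-) and 0.19 in TSA(+), beside -0.04 and -0.22 for all probes.

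In complex I, 10 genes were higher and 2 lower in TSA(-), and 12 and 4 in TSA(+). Ndufv3, a small subunit beside the NADH site, read -3.52 to -2.31 (median -2.56) in IVF, -1.10 to -0.30 (median -0.88) in TSA(-) and -0.85 to 0.00 (median -0.47) in TSA(+). It was higher by 1.89 (SE 0.22, adjusted p 1.04e-07) and 2.25 (SE 0.23, adjusted p 1.68e-08), but its other probes were not called in either group (-0.41 and -0.15 in TSA(-), 0.11 and 0.16 in TSA(+)), and with the mean over probes the TSA(-) call was lost (0.44, adjusted p 0.0259). Ndufs4, a subunit needed for a complete complex, read -0.72 to 0.04 (median -0.41) in IVF, 0.42 to 1.55 (median 1.01) in TSA(-) and 0.77 to 1.48 (median 1.07) in TSA(+), higher by 1.39 and 1.44; it was chosen after its values were seen. Ndufb10 was not called in TSA(-) (0.93, adjusted p 0.0123) and was called in TSA(+) (1.72, adjusted p 5.25e-05), with -0.73 to 0.92 (median 0.40) in IVF and 1.61 to 2.25 (median 2.03) in TSA(+). Ndufb11, a membrane arm subunit encoded on the X chromosome, was lower, at 4.66 to 5.21 (median 5.04) in IVF, 3.47 to 4.45 (median 3.81) in TSA(-) and 4.04 to 4.34 (median 4.19) in TSA(+), with differences of -1.11 (adjusted p 8.53e-06) and -0.80 (adjusted p 0.00102; -0.61 and not called under 1 other scaling). Ndufa1, also on the X, read 4.25 to 4.77 (median 4.34) in IVF and 3.11 to 3.67 (median 3.47) in TSA(+), a difference of -0.97 (adjusted p 0.000183), and -0.77 in TSA(-). Its second probe lay on the other side of 0 and was not called in TSA(+) (0.32, adjusted p 0.197) or TSA(-) (0.57, adjusted p 0.0115), and with the mean over probes the TSA(+) call was lost (-0.32, adjusted p 0.178). For all 5 genes the called cloned group and IVF did not overlap.

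In complex II, Sdhb was higher in both cloned groups, with levels of -1.84 to -0.52 (median -1.49) in IVF, of -0.14 to 0.42 (median 0.17) in TSA(-) and of -0.17 to 0.64 (median 0.35) in TSA(+). The differences were 1.49 (adjusted p 1.54e-06) and 1.60 (adjusted p 1.65e-06). Sdha was called in neither, and Sdhaf4, chosen after its values were seen, was higher in both (1.13 and 0.86). In complex III, Uqcr11, a small accessory subunit, read -1.66 to -0.62 (median -1.12) in IVF, 0.14 to 1.23 (median 0.59) in TSA(-) and 0.69 to 0.96 (median 0.83) in TSA(+), higher by 1.77 (SE 0.21, adjusted p 2.2e-07) and 1.96 (SE 0.23, adjusted p 1.27e-07). Each cloned array lay above each IVF array for Sdhb and Uqcr11. Uqcrc1 was higher by 1.03 (adjusted p 0.00267; 0.83 and 0.0131 without IVF replicate 5) and 1.35 (adjusted p 0.000344), and its second probe gave 1.00 (adjusted p 0.0523) and 1.29 (adjusted p 0.0158), of like size and not called.

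**Figure D3:**
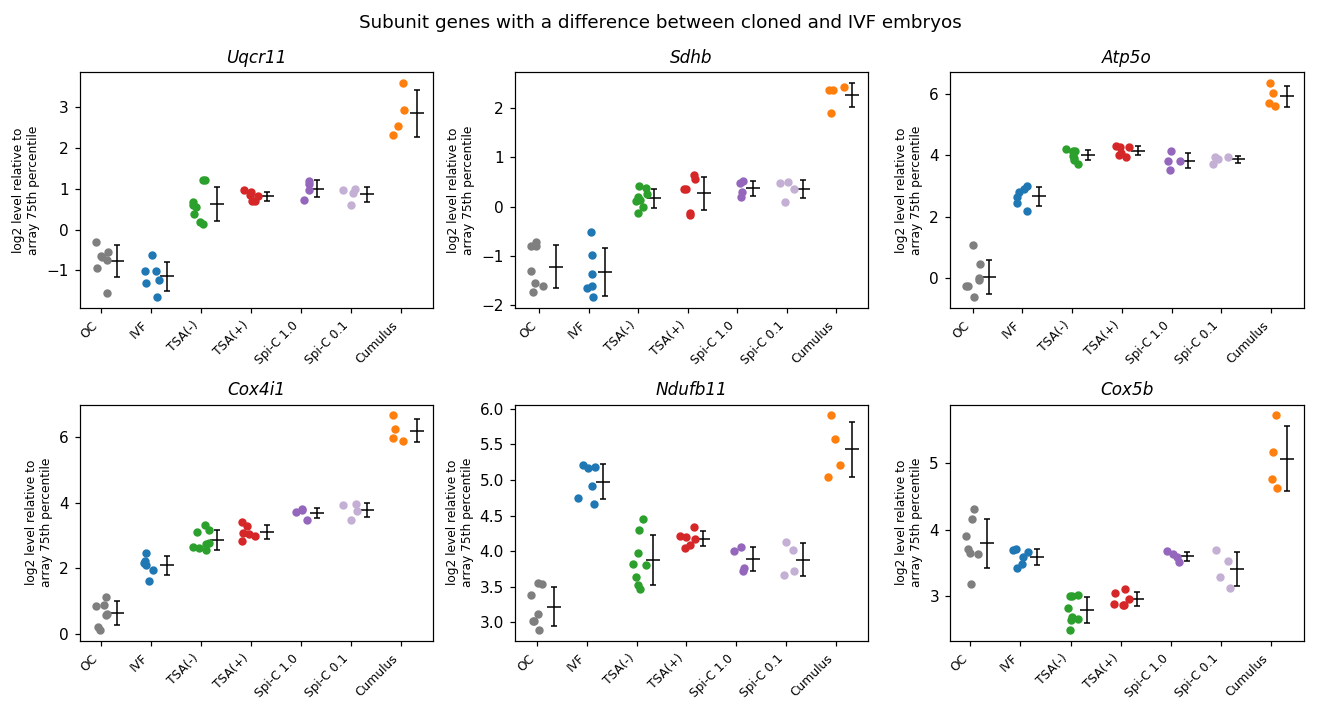
Levels of 6 members, in log2 relative to the array's 75th percentile, in the 7 groups; points are arrays, bars means and whiskers SD. Uqcr11 lies between -1.66 and -0.62 in IVF and between 0.14 and 1.23 in TSA(-), and Cox5b falls between 3.43 and 3.70 in IVF and 2.49 and 3.02 in TSA(-).

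In complex V, 5 of 17 genes were higher in TSA(-) and 6 in TSA(+), with 5 to 7 and 7 under the other scalings. Atp5o read 2.19 to 3.02 (median 2.71) in IVF, 3.72 to 4.19 (median 4.04) in TSA(-) and 3.96 to 4.30 (median 4.18) in TSA(+), higher by 1.34 (adjusted p 4.05e-06) and 1.49 (adjusted p 2.36e-06). Chosen after their values were seen, Atp5pb, the peripheral stalk subunit b, was higher by 1.40 (adjusted p 2.19e-08) and 1.39 (adjusted p 8.25e-08), and Atp5k, a subunit of the membrane part, by 1.35 and 1.52. IVF arrays were lower than all arrays of both cloned groups for these 3 genes. Atp5b, with the ATP-making site, was called in neither.

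In complex IV, 1 gene was higher in each cloned group and 3 and 4 were lower. The higher one was Cox4i1, at 1.62 to 2.46 (median 2.14) in IVF, 2.55 to 3.32 (median 2.75) in TSA(-) and 2.82 to 3.42 (median 3.07) in TSA(+), by 0.78 (adjusted p 0.00119) and 1.02 (adjusted p 0.000117). Among the lower ones, Cox8c stood at -0.83 to -0.26 (median -0.62) in IVF, -6.29 to -2.52 (median -3.76) in TSA(-) and -5.79 to -2.34 (median -3.67) in TSA(+), with differences of -3.45 (SE 0.72, adjusted p 0.000515) and -3.21 (SE 0.77, adjusted p 0.00209). Cox6a2 read -0.82 to -0.11 (median -0.63) in TSA(-) and -1.27 to -0.38 (median -0.85) in TSA(+), lower than in IVF in both (-1.15, adjusted p 6.16e-05, and -1.47, adjusted p 5.3e-06). The transcripts of both isoforms, far lower in cumulus cells, were thus present in cloned embryos at levels below those of IVF, without overlap. Cox5b read 3.43 to 3.70 (median 3.62) in IVF, 2.49 to 3.02 (median 2.76) in TSA(-) and 2.86 to 3.11 (median 2.92) in TSA(+), lower in both (-0.80, adjusted p 0.000371, and -0.64, adjusted p 0.00594). The TSA(+) call of Cox5b was lost under median centering, with the replicate number as a block (adjusted p 0.0118) and without IVF replicates 1, 2, 4 or 6 or TSA(+) replicates 1, 2, 4 or 6, at adjusted p 0.0107 to 0.0136. Cox7a2l, chosen after its values were seen, was lower in TSA(+) (-0.93). Cox5a, Cox6a1, Cox6b1, Cox6b2, Cox7a2, Cox7b, Cox8a and Ndufa4 were called in neither group. Of these, Cox7b is encoded on the X chromosome, as Ndufb11 and Ndufa1 are.

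These differences were looked at within slides. The 3 slides with TSA(-) and IVF arrays gave members' medians of 0.05, 0.18 and 0.28 (all probes 0.015, -0.21 and -0.14), and the 3 with TSA(+) and IVF gave 0.36, 0.24 and 0.06 (all probes -0.32, -0.06 and -0.18). Of members named from the same arrays, Uqcr11 differed by 1.41, 1.80 and 1.85 in TSA(-) and 2.10, 2.21 and 1.32 in TSA(+), and Cox6a2 by -1.61, -0.75 and -1.12, and -1.60, -1.37 and -1.32. Sdhb varied more, between 0.51 and 1.79 in TSA(-) and between 0.34 and 1.97 in TSA(+). A fit with slides as blocks called 11 members higher and 2 lower in TSA(-), and 20 and 6 in TSA(+). The share of all probes called in that fit is not given here, so these counts are not set against a background. In TSA(-) the block kept the calls of Uqcr11 (1.70, adjusted p 7.87e-05), Sdhb (1.37, adjusted p 0.00292), Atp5o (1.12, adjusted p 0.00312), Ndufb11 (-0.98, adjusted p 0.00452), Ndufv3 (1.69) and Cox6a2 (-1.18), and lost those of Cox8c (-2.95, adjusted p 0.0121), Cox4i1 (0.88, adjusted p 0.0192), Cox5b (-0.74, adjusted p 0.0188) and Uqcrc1 (0.97, adjusted p 0.0614). In TSA(+) it lost Cox5b (-0.61, adjusted p 0.0224). Leaving out 1 array gave 15 to 22 higher and 5 lower in TSA(-), and 22 to 24 higher and 6 to 7 lower in TSA(+).

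TSA(+) against TSA(-) asks what TSA changes in cloned embryos, with the TSA(-) arrays shared with the Spi-C comparison. No member passed the test: limma called 0 higher and 0 lower, beside 0.0506% and 0.0936% of all probes, so few calls were made anywhere. At an unadjusted p under 0.05 there were 8 members, and the Tukey test called 1, Ndufb5. The shares of all probes at that p and by the Tukey test are not given here. These counts are thus not set against a background and are not a result about the members. Ndufb5, a membrane arm subunit, read 2.74 to 3.29 (median 2.99) in 7 TSA(-) arrays (1 spot was left out) and 2.37 to 3.03 (median 2.55) in TSA(+), with overlap (difference -0.43, SE 0.14, adjusted p 0.113). The median difference of the members was 0.10, beside -0.10 for all probes, and -0.14 beside -0.07 on the 1 slide with both groups.

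Spi-C NT against TSA(-) asks what Spi-C mRNA changes in cloned embryos, with the mean of the Spi-C 1.0 and Spi-C 0.1 groups taken as Spi-C NT. The treatment cannot be told apart from slides and scanner. Markers differed too: 2 of the 5 markers of 2-cell embryos were lower with Spi-C. Of the 9 oocyte markers 2 were higher and 3 lower, and 1 of the 5 leukocyte markers was higher. Whether the groups differed in stage was not tested. Differences were small, at most 1.14 log2 units among members called, and no direction can be given for the members together. Here 23 members were higher (27.4%, beside 12.1% of all probes) and 7 lower (8.33%, beside 8.8%), but median centering gave 10 and 11, with 47.6% of calls higher against 76.7%, and normexp 27 and 12. Called in 1 direction under all 4 scalings were 10 higher and 6 lower members. The median difference was 0.20, beside 0.15 for all probes. When 1 array was left out, the number higher ran from 15, without Spi-C 0.1 replicate 1, to 23, and the number lower from 5 to 7. With the replicate number as a block both counts fell below these ranges. With all 7 groups in 1 fit the number higher did too. Those counts are given with the processing below.

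In complex I, 11 genes were higher and 2 lower with Spi-C, and 5 and 4 under median centering. Ndufa12, an accessory subunit, read 0.27, 0.46, 0.61 and 0.28 in Spi-C 1.0 and 0.78, -0.01, 0.15 and 0.45 in Spi-C 0.1, against -1.47 to -0.18 (median -0.84) in TSA(-). Its difference was 1.14 (SE 0.17, adjusted p 1.18e-05) without overlap, and of its 3 probes 2 were higher and 1 was not (-0.30), so that the mean over probes was not called (0.55, adjusted p 0.0492). Ndufc2 read 0.84, 0.65, 0.79 and 0.53, and 0.98, 0.07, 0.72 and 0.53, against -0.90 to 0.25 (median -0.42), a difference of 0.98 (SE 0.19, adjusted p 0.000292) with overlap.

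Several Spi-C differences fell in complex IV, and 1 gene of complex II, Sdhc, was called higher (0.45, but 0.25 and not called under median centering; chosen after its values were seen). Cox4i1 read 3.78, 3.46, 3.81 and 3.71 in Spi-C 1.0 and 3.94, 3.48, 3.97 and 3.75 in Spi-C 0.1, above all TSA(-) arrays (difference 0.87, SE 0.13, adjusted p 1.5e-05). Cox5b read 3.51, 3.63, 3.58 and 3.67, and 3.70, 3.13, 3.53 and 3.29, above all TSA(-) arrays as well (0.71, adjusted p 2.33e-06). Cox6a2 (0.76, adjusted p 0.000478) and Cox6a1 (0.72, adjusted p 2.45e-05) were higher with overlap, Cox6a2 without a call when the replicate number was a block (0.62, adjusted p 0.0189). Cox6c, a small subunit, was below all TSA(-) arrays (5.01 to 5.33, median 5.20) with 4.55, 4.70, 4.34 and 4.67 in Spi-C 1.0 and 4.24, 4.11, 4.31 and 4.41 in Spi-C 0.1, a difference of -0.75 (SE 0.09, adjusted p 2.51e-07). Complex IV had 5 genes higher and 2 lower, 4 and 3 under median centering, and 6 and 5 under normexp.

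Complex V, with 3 genes higher and 2 lower (1 and 2 under median centering), held opposite changes. Atp5g2, another c subunit gene, read 2.87, 3.23, 2.95 and 2.98 in Spi-C 1.0 and between 2.42 and 3.23 on all 8 Spi-C arrays, against 1.45 to 2.58 (median 1.78) in TSA(-), higher on both probes (difference 1.07, SE 0.14, adjusted p 2.2e-06) with overlap. Atp5b read 5.99, 6.09, 5.86 and 5.95, and 5.96, 6.05, 5.88 and 6.09, below all TSA(-) arrays (6.58 to 7.09, median 6.84; difference -0.87, SE 0.08, adjusted p 7.66e-09), lower on 2 of 3 probes (the other one -0.17). In complex III, Uqcrfs1 read 2.10, 2.01, 1.77 and 1.99, and 1.72, 1.70, 1.92 and 1.59, against 1.76 to 3.87 (median 2.65), a difference of -0.80 (SE 0.21, adjusted p 0.0055) with overlap. That call was lost with the replicate number as a block (-0.44, adjusted p 0.105) and without TSA(-) replicates 3, 6 or 8, Spi-C 1.0 replicate 3 or Spi-C 0.1 replicates 1 or 4, at adjusted p 0.0101 to 0.0136. Uqcrc1 was called at 0.65 (adjusted p 0.00909), and its second probe was not called (0.42, adjusted p 0.0692). The call was lost under median centering, with the authors' values (adjusted p 0.0104), with all 7 groups in 1 fit (adjusted p 0.0256), with the mean over its probes (0.49, adjusted p 0.0318), with the slide (adjusted p 0.0129) or the replicate number (0.44, adjusted p 0.144) as a block, and without TSA(-) replicates 1, 3, 5, 6, 7 or 8, Spi-C 1.0 replicates 1, 3 or 4 or any 1 Spi-C 0.1 array, at 0.58 to 0.68 (adjusted p 0.0104 to 0.0229).

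Spi-C 1.0 against Spi-C 0.1 compares the doses on shared slides. Limma called 0 members higher and 0 lower, beside 0.00506% and 0.0% of all probes, with 6 at an unadjusted p under 0.05 and 0 by the Tukey test. The share of all probes at that unadjusted p is not given here, so the 6 are not set against a background. The smallest p belonged to Atp5mpl (0.40, adjusted p 0.999). The members' median difference was 0.10, and 0.16 and 0.05 within the 2 slides.

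Of the members, 16 have several probes, and for a few of them the probes were called in opposite directions. In IVF against OC these were Ndufab1, the acyl carrier protein (-2.98, and at least 3.03-fold higher on its other probe, for which 1 of 7 OC arrays was above background), and the extra probes of Ndufv3 (at least 8.37-fold higher, with 5 of 7 OC arrays above background, and -3.83). In Cumulus against OC they were Ndufab1 (-3.16 and at least 96.2-fold higher), Ndufv3 (5.37, at least 12.6-fold higher, and -3.21) and Sdha. With Spi-C it was Atp5a1, the catalytic alpha subunit (-0.39, adjusted p 0.00313, and 0.70, adjusted p 0.000147). Which transcript form each probe measures is not known, and the counts above use the probe with the highest mean level, so these genes enter them on 1 probe alone.

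Neighboring gene lists were counted in the same way, in the order IVF against OC, Cumulus against OC, Cumulus against IVF, TSA(-) against IVF, TSA(+) against IVF and Spi-C NT against TSA(-). Of all probes 23.4, 23.5, 24.0, 8.58, 8.02 and 12.1% were higher and 42.6, 44.1, 31.2, 10.2, 10.8 and 8.8% lower, and a share near these is not a result about a list. Of 35 assembly factors 13, 20, 19, 9, 9 and 4 were higher and 17, 11, 5, 0, 2 and 6 lower (14 and 14 in the first comparison under quantile normalization). Of 76 mitochondrial ribosomal proteins 28, 49, 55, 19, 22 and 16 were higher and 32, 20, 7, 7, 7 and 2 lower, with 30 higher and 24 lower in the first comparison under quantile normalization and 5 and 5 in the last under median centering. Of 13 enzymes of the tricarboxylic acid cycle 6, 8, 10, 3, 4 and 5 were higher and 6, 5, 2, 1, 2 and 0 lower (3 and 3 in the last under median centering). Of 11 genes of pyruvate dehydrogenase and its kinases 2, 2, 3, 2, 1 and 1 were higher and 9, 8, 4, 4, 3 and 6 lower (5 and 2 in the third comparison under median centering). Of 21 regulators of mitochondrial biogenesis 9, 11, 7, 3, 2 and 1 were higher and 6, 8, 7, 1, 2 and 6 lower (8 and 9 in the first under median centering). Of 12 genes for cytochrome c, ADP/ATP and phosphate carriers, porins and uncoupling proteins 2, 3, 5, 2, 2 and 2 were higher and 6, 4, 4, 3, 3 and 2 lower (7 and 4 in the first and 9 and 2 in the second under quantile normalization), and those higher in TSA(-) and TSA(+) were the phosphate carrier Slc25a3 and the uncoupling protein Ucp2, named after their values were seen. Of the 168 genes of these lists limma called 0 in TSA(+) against TSA(-), with 26 at an unadjusted p under 0.05 and 1 by the Tukey test, and 0 in Spi-C 1.0 against Spi-C 0.1, with 8 and 0. The counts by unadjusted p and by the Tukey test are not set against a background here.

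The promoters of the members were read for motifs of factors known to bind such genes, over 250 bases before to 50 bases after the RefSeq start, on both strands. Of 70 members with a matched start, 4 held the NRF1 motif (5.71%, beside 1.07% of 27025 genes), 19 the ETS motif (27.1%, beside 9.93%) and 5 the YY1 motif (7.14%, beside 0.995%). The ETS motif was searched as that of the ETS family of factors and its member GABP. Spi-C is of this family too, and whether it binds these letters was not tested. A match is a description, not a site or a cause. The promoters of 6 members whose levels differed between groups are printed because they show each motif, in GRCm38.p6, with the motif letters in capitals and each read along its gene's strand. They are Ndufs8 (chr19:3912725-3913024, minus strand), Sdhb (chr4:140961021-140961320, plus strand) and Uqcr11 (chr10:80406772-80407071, minus strand) with the ETS motif, Uqcrc1 (chr9:108936398-108936697, plus strand) with NRF1, Atp5k (chr5:108434350-108434649, minus strand) with NRF1 and ETS, and Ndufs4 (chr13:114388045-114388344, minus strand) with YY1.
Ndufs8: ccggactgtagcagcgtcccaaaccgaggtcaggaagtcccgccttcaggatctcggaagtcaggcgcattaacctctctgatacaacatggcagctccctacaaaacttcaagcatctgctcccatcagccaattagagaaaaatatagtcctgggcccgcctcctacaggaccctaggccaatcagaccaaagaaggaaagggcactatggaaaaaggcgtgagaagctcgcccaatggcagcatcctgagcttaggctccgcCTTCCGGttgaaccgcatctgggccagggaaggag
Sdhb: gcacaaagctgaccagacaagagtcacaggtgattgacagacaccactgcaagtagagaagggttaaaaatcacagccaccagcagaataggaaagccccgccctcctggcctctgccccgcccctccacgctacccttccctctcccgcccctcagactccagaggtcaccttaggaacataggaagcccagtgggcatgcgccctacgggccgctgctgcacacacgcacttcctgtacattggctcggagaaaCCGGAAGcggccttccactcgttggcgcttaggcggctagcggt
Uqcr11: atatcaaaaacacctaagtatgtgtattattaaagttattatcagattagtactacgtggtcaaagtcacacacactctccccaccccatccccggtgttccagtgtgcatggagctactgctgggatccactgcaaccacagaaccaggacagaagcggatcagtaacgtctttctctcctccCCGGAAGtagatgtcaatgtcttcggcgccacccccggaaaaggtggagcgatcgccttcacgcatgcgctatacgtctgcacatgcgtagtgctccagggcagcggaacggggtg
Uqcrc1: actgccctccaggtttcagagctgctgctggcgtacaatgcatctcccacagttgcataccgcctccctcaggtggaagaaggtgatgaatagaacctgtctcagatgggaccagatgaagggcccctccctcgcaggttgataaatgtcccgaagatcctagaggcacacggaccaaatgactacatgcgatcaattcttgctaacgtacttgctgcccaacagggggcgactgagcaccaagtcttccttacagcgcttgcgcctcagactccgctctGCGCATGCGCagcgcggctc
Atp5k: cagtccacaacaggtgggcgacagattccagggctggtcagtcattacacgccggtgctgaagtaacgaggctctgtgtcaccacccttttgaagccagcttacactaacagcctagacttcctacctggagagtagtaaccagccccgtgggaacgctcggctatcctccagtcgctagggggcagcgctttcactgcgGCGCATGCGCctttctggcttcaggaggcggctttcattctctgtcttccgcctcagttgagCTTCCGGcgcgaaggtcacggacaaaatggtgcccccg
Ndufs4: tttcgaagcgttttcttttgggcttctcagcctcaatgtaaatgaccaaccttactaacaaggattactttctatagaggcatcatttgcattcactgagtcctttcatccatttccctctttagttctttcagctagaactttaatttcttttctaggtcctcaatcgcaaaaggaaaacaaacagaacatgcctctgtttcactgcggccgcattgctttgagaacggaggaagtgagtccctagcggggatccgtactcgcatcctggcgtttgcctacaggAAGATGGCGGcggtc

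Each value rests on a pool of 10 oocytes or embryos, or 500 cells, after RNA amplification, and the number of arrays limits the precision. RNA levels do not give protein or respiration, and the subunits encoded in mitochondrial DNA were not examined.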

How the data were processed

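Single-color Agilent 44K arrays of 39 samples were read from the scanner output. The authors deposited intensity values, the green signal after background subtraction and detrending by Feature Extraction (9.5.3.1 in the labels, and 10.5.1.1 in the headers of the Cumulus and Spi-C arrays). The deposited table of the authors is in log2, with each array's 75th percentile and then each probe's median subtracted, and it was checked against the scanner output. The other values in the deposited files are flags of type other, used for spots well above background, saturated spots and outliers. RNA had been amplified by the authors and labelled with Cy3. Here log2 intensity minus the array's 75th percentile was used, with 5238 outlier spots left out. Probes with an intensity of at least 10 on at least 1 IVF or cloned-embryo array were tested (39520 of 41174). Accessions matched 23374 probes and 16535 genes in RefSeq, and a gene with several probes was represented by the probe with the highest mean level. Linear models were fitted with limma 3.58.1 (lmFit, eBayes, Benjamini-Hochberg adjusted p under 0.01, two-sided) in R 4.3.3, once over OC, IVF, TSA(-), TSA(+) and Cumulus and once over IVF, TSA(-), TSA(+) and the Spi-C groups. statmod 1.5.0, Python 3.11.15, pandas 2.3.3, numpy 2.4.6 and matplotlib 3.10.9 were used too. Named genes were taken from the core and isoform genes of a list and, in each comparison, the 3 members with the largest called difference in each direction. Members, gene lists and marker lists were chosen with earlier results of these data known. Alternatives were quantile normalization, median centering, normexp (offset 50), the authors' values, other filters, adjusted p under 0.05, all 7 groups in 1 fit, slide, scan day or replicate number as a block, the mean over probes, the authors' Tukey test and leaving out each array; differences within slides were added after seeing the data.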

Additional observations from a re-analysis of the deposited data

Results flagged for a closer look

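In 10 of 273 groups of arrays tested by Dixon's criterion, 1 array of a named member stood far from the others of its group, and chance gives about 1 in 20 groups. In Cumulus replicate 3, Sdha read 0.62 (the others 1.68 to 1.85), Sdhb 1.89 (2.4 each, rounded) and Atp5b 7.75 (7.38 to 7.42). In Cumulus replicate 2, Cox8c read -4.52 (-9.01 to -8.40). Cox7b read 3.28 in TSA(-) replicate 2 (2.74 to 2.98), and Cox6c 4.96 in TSA(+) replicate 4 (5.17 to 5.27). Among the IVF arrays, Ndufa12 read -1.75 in replicate 5 (-0.87 to -0.56) and Ndufa1 4.77 in replicate 2 (4.25 to 4.43). Sdha read 1.25 in Spi-C 1.0 replicate 2 (0.81 to 0.84), and Cox6a1 3.84 in OC replicate 2 (2.44 to 3.03). The cause was not tested.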

How the results depend on the processing

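Of 2327 values of 96 called results of named genes under the alternatives, 2216 kept their direction and their side of the threshold, 100 fell short of the threshold and 11 changed sign. All 11 changed sign under quantile normalization: in IVF against OC Cox5a (0.21), Atp5b (0.41), Cox6b2 (0.20), Cox7a2 (0.59), Cox8a (0.83) and Ndufa4 (0.22), and in Cumulus against OC Cox5a (0.53), Atp5b (0.57), Cox7a2 (1.18), Cox8a (0.29) and Ndufa4 (1.13). Quantile normalization also left 20 members lower in IVF against OC and 9 lower in Cumulus against OC. With the slide as a block 11 were higher and 2 lower in TSA(-) against IVF. Shares of all probes called under the alternatives are not given, so the counts in this section are not set against a background. Median centering left 5 lower in TSA(+) against IVF. The Tukey test called 1 lower in TSA(+) against TSA(-). In Spi-C NT against TSA(-), 10 were higher and 11 lower under median centering, 12 lower under normexp, and 13 higher with all 7 groups in 1 fit. With the replicate number as a block that comparison had 10 higher and 3 lower, while over 44 pairs of arrays with 1 replicate number, those of this comparison included, deviations from the group mean correlated at -0.087 to 0.085. The cause was not tested. Leaving out 1 array gave 21 to 24 higher and 38 to 39 lower in IVF against OC, 57 to 58 and 14 to 18 in Cumulus against OC, 61 to 66 and 4 to 5 in Cumulus against IVF, 15 to 22 and 5 to 5 in TSA(-) against IVF, 22 to 24 and 6 to 7 in TSA(+) against IVF, 15 to 23 and 5 to 7 in Spi-C NT against TSA(-), and 0 to 0 in TSA(+) against TSA(-) and in Spi-C 1.0 against Spi-C 0.1. Signal over background limits Cox4i2, Cox7b2, Cox8b, Cox8c, Cox7a1, Ndufc1 and Ndufs8, which on some arrays were not above it.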
